A study of Mus musculus with 12 samples.

Results

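The interaction between a CD70 transgene and the Ifng genotype was measured gene by gene in CD71+ bone marrow cells, that is, whether the transgene changed a gene's RNA by a different amount when interferon-gamma could be made than when it could not. Arrays were taken by their genotype label alone, and all 12 arrays of the series were used. The 4 groups were CD70TG (the transgene, with Ifng intact), WT, CD70TG*Ifng-/- (the transgene in mice without Ifng) and Ifng-/-, with 3 mice and 1 array per mouse in each. All were male C57BL/6J mice of 10 to 12 weeks. Cells from the hind legs that carry CD71, the transferrin receptor of red cell precursors, were enriched with an antibody and magnetic beads, so each array is a bulk measurement of the enriched cells. The labels give the CD70TG mice as clone F13, 1 transgenic line, name no clone for CD70TG*Ifng-/- and do not give the promoter of the transgene.

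CD70 is the ligand of CD27, a costimulatory receptor of lymphocytes, and its constant expression drives T cells to an effector state in which they secrete interferon-gamma. Interferon-gamma signals through its receptor and the Jak kinases to induce Irf1, guanylate-binding and immunity-related GTPases, and the genes that cut, transport and present peptides on MHC molecules. In the marrow it is known to act on macrophages and on blood-forming cells, including red cell precursors.

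The values are log2 levels, each relative to the median of its probe set over the 12 arrays, so differences between arrays can be read and levels of different genes cannot be compared. The interaction is the transgene effect with Ifng (CD70TG minus WT) minus the transgene effect without Ifng (CD70TG*Ifng-/- minus Ifng-/-). For some genes the effects or the array values are printed beside it, and for others the interaction alone is given. A positive interaction means that the transgene moved the gene further up, or less far down, when Ifng was intact. It was tested with limma over 19935 genes, called at an adjusted p under 0.05, and had a median standard error of 0.13. Of the 12 arrays, CD70TG 3 stood highest on the third principal component (20.2), and Ifng-/- 2 was the array without the transgene that lay nearest to the transgenic ones on the first (3.34). Erythroid genes lay mostly in the brighter of the 2 level classes that the rounding of the values reveals: 16 of 21 erythroid transcription factors and 14 of 15 haem and globin genes did, against 0 of 32 T and NK cell genes, and Tfrc, which encodes CD71, did as well.

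The gene that was deleted could not be used to check the labels. The Ifng probe set read -0.11, 0.05 and 0.01 in CD70TG, 0.03, -0.09 and 0.16 in WT, -0.11, 0.20 and 0.02 in CD70TG*Ifng-/-, and -0.16, -0.01 and -0.02 in Ifng-/-. The 4 groups overlapped, Ifng lay in the dimmer level class, and what was deleted within Ifng is not given in the labels. Cd70 had an interaction of -0.13 ± 0.17 (SE, n = 3 mice per group, adjusted p = 0.661) and Cd27 of -0.01 ± 0.14 (adjusted p = 0.965). Neither CD70 nor its receptor therefore passed the threshold.

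The interaction passed for 377 genes (1.89% of those tested), of which 321 were positive (1.61%) and 56 negative (0.281%). At an unadjusted p under 0.05 there were 4041 genes (20.3%). The positive genes had a median interaction of 0.71 (range 0.39 to 3.11) and 83 of them reached 2-fold. The negative genes had a median of -0.61 (range -1.28 to -0.42) and 6 reached 2-fold, while the median over all genes was -0.04. Positive genes made up 85.1% of the calls. This split depends on scaling, since centring each array within the level classes gave 369 positive and 129 negative genes, 74.1% positive. Among genes of the brighter class it turned the other way, with 33 positive and 104 negative in place of 87 and 25.

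**Figure D1:**
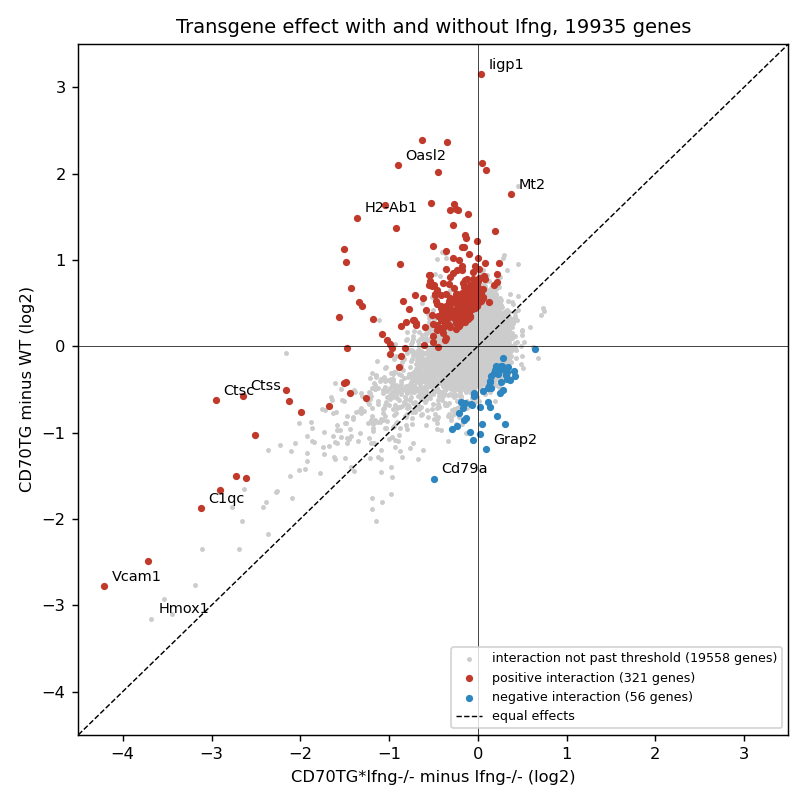
Transgene effect with Ifng (vertical axis, CD70TG minus WT, log2) against the transgene effect without Ifng (horizontal axis, CD70TG*Ifng-/- minus Ifng-/-, log2) for 19935 genes, each a point, with the dashed line marking equal effects. The 321 positive interaction genes lie above the line, from Iigp1 near the top to Vcam1 at the lower left, and the 56 negative ones lie below it.

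The positive genes fell into classes by which of the 2 transgene effects passed. Most, 244 of 321 (76.0%), rose with Ifng intact and did not pass without it, with median effects of 0.54 with Ifng and -0.14 without. Another 42 (13.1%) passed only without Ifng, where they fell, with median effects of 0.17 with Ifng and -0.81 without. (Of all genes, 2.5% passed without Ifng in either direction.) In 12 genes the transgene lowered expression in both settings and lowered it further without Ifng (medians -1.26 and -2.56), and 9 rose with Ifng and fell without it. The remaining 14 passed in neither. Between the 2 transgenic groups 150 of the 321 were lower in CD70TG*Ifng-/- than in CD70TG (0.988% of all genes were). Of the 56 negative genes, 41 (73.2%) fell only with Ifng (medians -0.64 with Ifng and 0.12 without), 4 rose only without it, and 11 passed in neither. Of these 56, 28 were higher in CD70TG*Ifng-/- than in CD70TG (0.426% of all genes were). Most genes that responded to the transgene did not pass the interaction test: of the 1640 genes that rose in CD70TG against WT (8.23% of those tested), 253 had a positive interaction, and of the 219 genes that fell in both settings, 12 did. Without Ifng 31 genes rose (0.156% of those tested), and 4 genes rose in both settings. Genes that did not pass the interaction test were therefore not shown to have equal effects.

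The same classes can be read from single arrays. In 162 of the 321 positive genes (50.5%) the 3 CD70TG arrays lay above all 9 others, a pattern that 2.89% of all genes showed. In 63 (19.6%) the 3 CD70TG*Ifng-/- arrays lay below all 9 others (1.4% of all genes), and in 64 (19.9%) it was the 3 WT arrays that lay below all 9 others (3.28% of all genes). In 15 (4.67%) the 3 Ifng-/- arrays lay above all 9 others (0.732% of all genes), among them Apoe, Csf1r, Irf9 and Wfdc17. Of the negative genes, 32 of 56 (57.1%) had the 3 CD70TG arrays below all 9 others (1.6% of all genes). Because the interaction chose these genes, the shares describe them and test nothing. Between the groups without the transgene 1 gene, Pawr, passed (0.00502% of those tested), and none of the 377 interaction genes did.

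**Figure D2:**
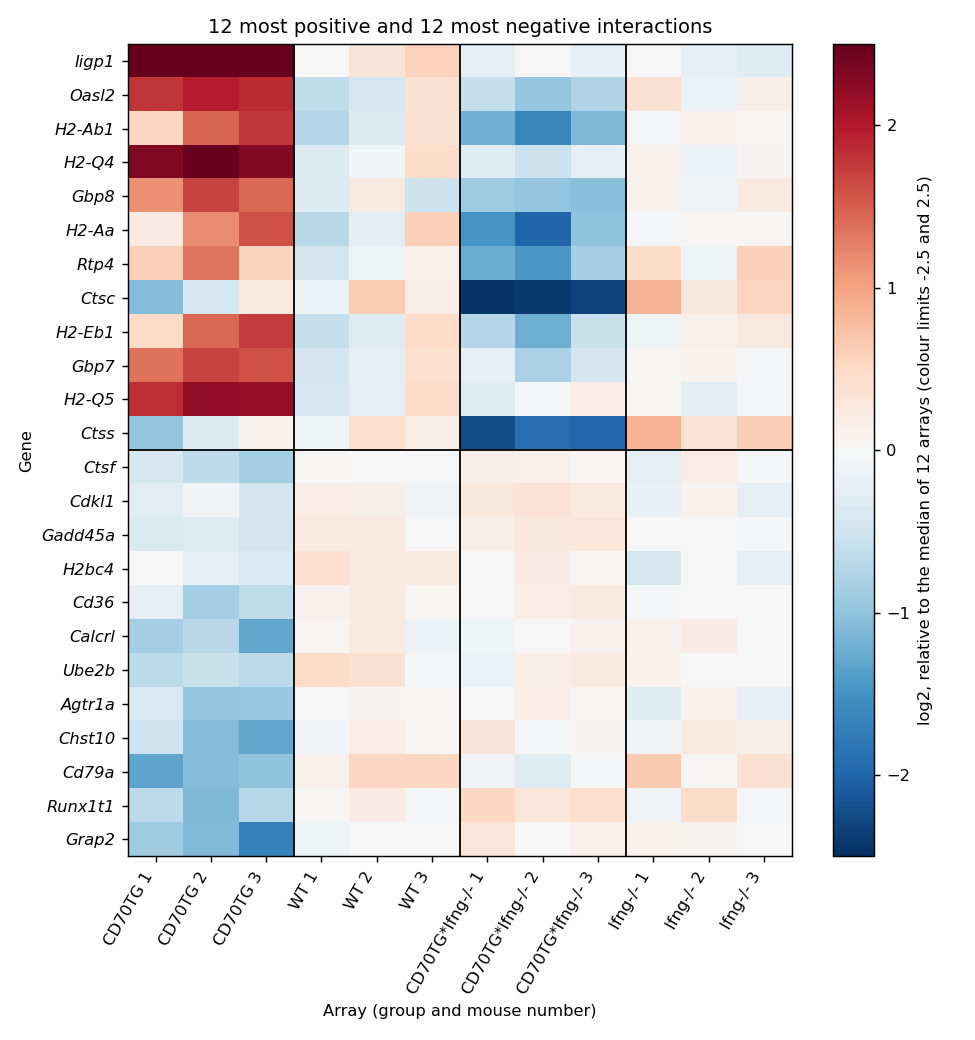
Log2 values relative to the median of 12 arrays for the 12 named genes with the most positive and the 12 with the most negative interaction (rows) on each array (columns, by group and mouse number). The upper block is high in the 3 CD70TG columns, at 2.68 to 3.94 for Iigp1, or low in the 3 CD70TG*Ifng-/- columns, as for Ctsc and Ctss, and in the lower block the 3 CD70TG columns are below the other 9 in 10 of 12 rows, the exceptions being H2bc4 and Cdkl1.

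Interferon-inducible GTPases, which attack the vacuoles of intracellular pathogens, had the highest median interaction of the 30 gene lists described here. Of 10 measured members 8 were positive and 0 negative, against 1.61% and 0.281% of all genes. The median interaction was 1.54, against -0.04 over all genes. Iigp1, an immunity-related GTPase, read 2.68, 3.94 and 3.72 in CD70TG, -0.00, 0.33 and 0.58 in WT, -0.22, -0.01 and -0.20 in CD70TG*Ifng-/-, and 0.00, -0.23 and -0.32 in Ifng-/-. The 3 CD70TG arrays stood far above the other 9, which lay between -0.32 and 0.58. The transgene effect was 3.15 with Ifng and 0.04 without, an interaction of 3.11 ± 0.34 (SE, adjusted p = 0.000818).

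The guanylate-binding proteins had different effects without Ifng. Gbp7 read 1.35, 1.70 and 1.59 in CD70TG, -0.48, -0.24 and 0.39 in WT, -0.21, -0.80 and -0.47 in CD70TG*Ifng-/-, and 0.02, 0.09 and -0.02 in Ifng-/-, with an interaction of 2.18 ± 0.26 (adjusted p = 0.00147). Its rise in CD70TG passed (1.66) and its value without Ifng (-0.52, adjusted p = 0.227) did not. Gbp8 rose by 1.64 with Ifng and fell by 1.04 without it (adjusted p = 0.00192), because the CD70TG*Ifng-/- arrays (-0.88, -0.99 and -1.04) lay below those of the other groups, Ifng-/- included (0.08, -0.08 and 0.21). Gbp3 (1.80), Gbp4 (1.90), Gbp5 (1.12), Irgm1 (1.29) and Gbp2b (0.68) were also positive. Gbp9 (0.63, adjusted p = 0.0644) and Gbp11 (0.40, adjusted p = 0.165) did not pass, although both rose with Ifng intact (0.67 and 0.49). Leaving out any single array gave 7 to 9 positive members.

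Of 14 measured genes of interferon-gamma signalling and its transcription factors, 3 were positive (1.61% of all genes were) and 0 negative (median 0.27). Irf1, the transcription factor that relays much of the response, read 0.49, 0.95 and 0.95 in CD70TG, -0.06, -0.01 and 0.15 in WT, -0.34, -0.02 and -0.30 in CD70TG*Ifng-/-, and 0.12, -0.23 and -0.11 in Ifng-/-. The CD70TG arrays lay above all others and the interaction was 0.91 ± 0.19 (adjusted p = 0.0265). The other called genes were Nlrc5 (0.70, adjusted p = 0.0335), the transactivator of MHC class I genes, and Stat3 (0.95, adjusted p = 0.0435), a transcription factor of cytokine signalling. The receptor chains Ifngr1 (0.96, adjusted p = 0.0876) and Ifngr2 (0.44, adjusted p = 0.344) did not pass, nor did the feedback inhibitor Socs1 (-0.20, adjusted p = 0.491) or the class II transactivator Ciita (0.23, adjusted p = 0.381). Calls in this list were fragile: 0 members passed without WT 1, CD70TG 2, CD70TG 3, Ifng-/- 3 or CD70TG*Ifng-/- 3, and 1 passed without CD70TG*Ifng-/- 2.

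Other interferon-gamma targets had 7 positive (1.61% of all genes were) and 0 negative of 17 measured, with a median of 0.07. The chemokine Cxcl10, which draws in activated T cells, read 0.71, 1.31 and 1.30 in CD70TG, -0.31, 0.15 and 0.03 in WT, -0.23, -0.07 and -0.20 in CD70TG*Ifng-/-, and 0.08, -0.07 and -0.03 in Ifng-/-. The interaction of 1.31 ± 0.21 (adjusted p = 0.00854) came with a CD70TG group that did not overlap the others. Cxcl9 (1.14), the immune checkpoint ligand Cd274 (0.91), the tryptophanyl-tRNA synthetase Wars (0.76), the aminopeptidase Lap3 (1.30), the immunoproteasome subunit Psmb8 (1.09) and the inflammatory caspase Casp1 (1.09) were the other 6. Their effects without Ifng differed, from 0.19 for Cxcl9 to falls of 0.71 for Lap3 (adjusted p = 0.0458) and 0.86 for Casp1 (adjusted p = 0.00651). The count was 1 without WT 1, CD70TG*Ifng-/- 2 or CD70TG*Ifng-/- 3, 2 without CD70TG 2, 3 without Ifng-/- 3, and 4 without WT 3 or CD70TG 3.

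**Figure D3:**
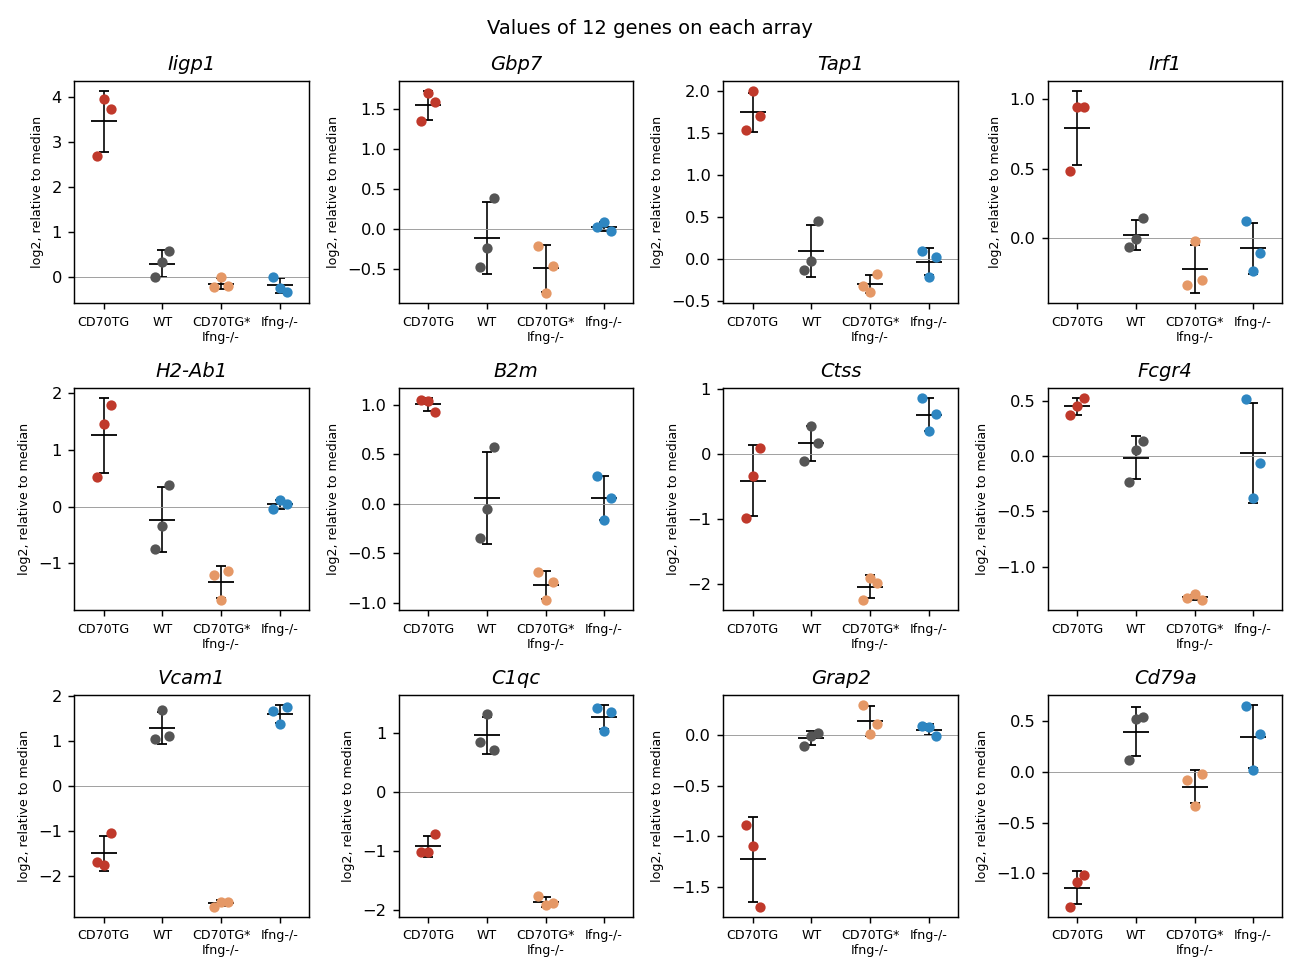
Log2 values relative to the median of 12 arrays (vertical axis) for 12 genes, with a point per array, the horizontal bar and whiskers giving the mean and SD of 3 mice, and the groups in the order CD70TG, WT, CD70TG*Ifng-/- and Ifng-/- (horizontal axis). In Iigp1, Gbp7, Tap1 and Irf1 the CD70TG points lie above the rest, in Ctss and Fcgr4 the CD70TG*Ifng-/- points lie below the rest, and in Grap2 and Cd79a the CD70TG points lie below the rest.

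The sequences around the start sites of 5 of these genes are shown because they hold the letters of the 2 elements that interferon-responsive transcription factors are known to bind. They are 300-base RefSeq windows of GRCm38.p6, each from 250 bases before to 50 bases after a gene's start, at chr11:53769764-53770063 for Irf1, chr3:142530086-142530385 for Gbp7, chr2:122147437-122147736 for B2m, chr3:95526536-95526835 for Ctss and chr1:171018676-171018975 for Fcgr4, all on the plus strand. Capitals mark the element TTCNNNGAA (called GAS) and the element GAAANNGAAA (called ISRE), searched on both strands. Irf1 and Gbp7 rose with Ifng, B2m moved in opposite directions, and Ctss and Fcgr4 fell without Ifng.
Irf1: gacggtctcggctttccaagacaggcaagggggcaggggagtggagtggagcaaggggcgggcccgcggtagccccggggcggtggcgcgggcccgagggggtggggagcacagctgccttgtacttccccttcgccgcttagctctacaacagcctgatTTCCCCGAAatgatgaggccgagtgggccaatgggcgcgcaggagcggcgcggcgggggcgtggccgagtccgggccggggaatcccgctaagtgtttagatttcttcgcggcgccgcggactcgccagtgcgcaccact
Gbp7: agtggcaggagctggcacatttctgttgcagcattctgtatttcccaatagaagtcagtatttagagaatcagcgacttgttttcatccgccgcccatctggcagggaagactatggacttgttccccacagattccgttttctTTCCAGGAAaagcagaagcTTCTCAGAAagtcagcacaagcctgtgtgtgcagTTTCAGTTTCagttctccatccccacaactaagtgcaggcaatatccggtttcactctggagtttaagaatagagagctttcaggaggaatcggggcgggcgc
B2m: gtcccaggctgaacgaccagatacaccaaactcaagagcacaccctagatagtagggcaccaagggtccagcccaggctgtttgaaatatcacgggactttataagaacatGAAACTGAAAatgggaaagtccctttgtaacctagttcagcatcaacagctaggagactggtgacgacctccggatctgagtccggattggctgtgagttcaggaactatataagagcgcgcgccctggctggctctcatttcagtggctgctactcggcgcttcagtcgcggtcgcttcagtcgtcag
Ctss: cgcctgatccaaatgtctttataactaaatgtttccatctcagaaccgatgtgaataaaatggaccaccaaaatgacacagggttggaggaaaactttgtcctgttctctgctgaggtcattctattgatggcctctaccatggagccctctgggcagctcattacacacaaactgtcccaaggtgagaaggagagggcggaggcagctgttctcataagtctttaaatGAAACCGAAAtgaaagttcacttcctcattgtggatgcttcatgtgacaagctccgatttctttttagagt
Fcgr4: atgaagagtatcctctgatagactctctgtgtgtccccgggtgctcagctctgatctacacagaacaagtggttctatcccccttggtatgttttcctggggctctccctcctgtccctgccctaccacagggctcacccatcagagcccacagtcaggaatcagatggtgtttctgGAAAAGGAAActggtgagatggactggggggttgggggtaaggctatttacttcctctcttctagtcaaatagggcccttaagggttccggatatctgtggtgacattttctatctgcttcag
Irf1 holds 1 GAS, Gbp7 holds 2 GAS and 1 ISRE (written on the other strand), and B2m, Ctss and Fcgr4 hold 1 ISRE each. Among 306 windows of 257 positive interaction genes, 8.50% held a GAS and 13.4% an ISRE, against 7.66% and 3.27% of 19175 windows of all measured genes. Of 44 windows of the genes that fell only without Ifng, 25.0% held an ISRE, and of 234 windows of those that rose only with Ifng, 11.5% did. The 52 windows of negative genes held 4 GAS and 2 ISRE, and the 11 windows of genes that fell in both settings held neither. A match describes the letters and does not show that a factor binds there.

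MHC class I genes present peptides from inside the cell to CD8+ T cells. Of 11 measured chains, 4 were positive (1.61% of all genes were) and 0 negative (median 0.24). The other 12 of the 23 chains listed were not analysed here, among them the classical chains H2-K1, H2-D1 and H2-L. H2-Q4, a non-classical class I chain, read 2.32, 2.54 and 2.30 in CD70TG, -0.34, -0.06 and 0.46 in WT, -0.29, -0.54 and -0.21 in CD70TG*Ifng-/-, and 0.10, -0.15 and 0.06 in Ifng-/-. Its interaction of 2.72 ± 0.22 (adjusted p = 0.000132) had the lowest adjusted p among all genes, with the CD70TG arrays apart from the other 9. H2-Q5 (2.08) and H2-T10 (1.94) behaved like it, with effects without Ifng of 0.04 and 0.09. These chains are near-identical copies of one another, and probes may be shared among them, so values of single chains are uncertain. B2m, the light chain that all class I molecules need, read 1.05, 1.04 and 0.93 in CD70TG, -0.34, -0.06 and 0.57 in WT, -0.69, -0.97 and -0.79 in CD70TG*Ifng-/-, and 0.28, -0.17 and 0.06 in Ifng-/-. Here the transgene effects went in opposite directions, 0.95 with Ifng and -0.87 without, and both passed (interaction 1.82 ± 0.25, adjusted p = 0.00362).

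The immunoproteasome and the peptide-loading machinery make the peptides and put them on class I chains. They had 9 positive (1.61% of all genes were) and 0 negative of 13 measured members. Their median interaction of 0.84 was made of 0.63 with Ifng and -0.18 without. The peptide transporter subunit Tap1 read 1.53, 2.00 and 1.70 in CD70TG, -0.13, -0.02 and 0.45 in WT, -0.33, -0.39 and -0.18 in CD70TG*Ifng-/-, and 0.10, -0.21 and 0.02 in Ifng-/-. The immunoproteasome subunit Psmb9 read 1.46, 1.69 and 1.93 in CD70TG, -0.02, -0.02 and 0.36 in WT, -0.28, -0.20 and -0.37 in CD70TG*Ifng-/-, and 0.13, -0.28 and 0.02 in Ifng-/-. In both genes the CD70TG arrays stood above all others, with interactions of 1.91 ± 0.21 (adjusted p = 0.000791) for Tap1 and 1.83 ± 0.19 (adjusted p = 0.000675) for Psmb9. The trimming peptidase Erap1 (1.33), the subunit Psmb10 (1.17), the proteasome activators Psme1 (1.13) and Psme2 (0.84), Psmb8 (1.09), the loading factor Tapbp (0.73) and the disulphide isomerase Pdia3 (0.83) completed the 9. The general chaperones Calr (0.39, adjusted p = 0.157) and Canx (0.20, adjusted p = 0.293), Tap2 (0.52, adjusted p = 0.0892) and Tapbpl (0.53, adjusted p = 0.0892) did not pass. Leaving out any single array gave 6 to 9 positive members.

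MHC class II genes, which antigen-presenting cells use to show peptides to CD4+ T cells, passed through different effects. With Ifng 3 of the 11 measured rose and 1 fell, and without Ifng 5 fell and 0 rose. Of all genes, 8.23% rose and 2.7% fell with Ifng, and 2.35% fell and 0.156% rose without it. Of the 11, 6 were positive (1.61% of all genes were) and 0 negative. Their median interaction of 1.03 was made of 0.28 with Ifng and -0.73 without. The beta chain H2-Ab1 read 0.52, 1.45 and 1.79 in CD70TG, -0.74, -0.35 and 0.38 in WT, -1.20, -1.64 and -1.13 in CD70TG*Ifng-/-, and -0.04, 0.11 and 0.04 in Ifng-/-. CD70TG arrays were the highest and CD70TG*Ifng-/- arrays the lowest, with no overlap, and the interaction was 2.85 ± 0.41 (adjusted p = 0.00468). The alpha chain H2-Aa (2.63, adjusted p = 0.018) had the same 2 called directions, with 1.12 with Ifng and -1.51 without, and H2-Eb1 (2.29, adjusted p = 0.018) passed only with Ifng, where it rose. H2-Aa did not pass the interaction test after quantile normalization. The invariant chain Cd74 (1.85), the peptide exchanger H2-DMa (1.03) and the protease Ctss passed through their fall without Ifng. Ctss, which cuts the invariant chain, read -0.98, -0.34 and 0.10 in CD70TG, -0.10, 0.44 and 0.17 in WT, -2.24, -1.90 and -1.97 in CD70TG*Ifng-/-, and 0.86, 0.35 and 0.62 in Ifng-/-. CD70TG*Ifng-/- arrays were clearly the lowest, and CD70TG overlapped WT (interaction 2.08 ± 0.31, adjusted p = 0.00536). The count was 3 without WT 1, CD70TG 2 or CD70TG*Ifng-/- 2.

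Genes best known as type I interferon-stimulated, many of which interferon-gamma also induces, had 15 positive (1.61% of all genes were) and 0 negative of 36 measured. Their median interaction of 0.63 was made of 0.16 with Ifng and -0.42 without. Oasl2, an antiviral protein related to the oligoadenylate synthetases, read 1.79, 1.95 and 1.87 in CD70TG, -0.63, -0.43 and 0.38 in WT, -0.59, -0.96 and -0.75 in CD70TG*Ifng-/-, and 0.38, -0.16 and 0.16 in Ifng-/-. CD70TG was the highest group and CD70TG*Ifng-/- overlapped WT, with an interaction of 2.99 ± 0.29 (adjusted p = 0.000289). Rtp4, an interferon-induced transporter of receptors, rose by 0.98 with Ifng and fell by 1.49 without (interaction 2.47 ± 0.32, adjusted p = 0.0029). Some members passed through their rise with Ifng, among them the ADP-ribosyltransferases Parp12 (1.36) and Parp14 (1.37) and the nucleic acid sensor Zbp1 (1.23). Others passed through their fall without it, namely the ubiquitin ligase Trim30a (1.90), Lgals3bp (1.50), Ifitm3 (1.37), Irf7 (0.90), Ifit1 (0.79), Oas1a (0.76), Usp18 (0.69) and Irf9 (0.63). Trim21 (0.66), an antibody-binding ubiquitin ligase outside the lists, also passed. The count for the list was 8 without WT 1, 7 without CD70TG 2 or CD70TG*Ifng-/- 3, and 9 without CD70TG*Ifng-/- 2.

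Most macrophage genes were lowered by the transgene in both settings. Of 29 measured members, 8 had a positive interaction (1.61% of all genes did), with 0 negative. Of the 8, 7 fell in both settings and fell less with Ifng intact, and Fcgr4 fell only without Ifng. Marrow macrophages form the island on which red cell precursors mature, and Vcam1 and C1q are among their known markers. Of the 29, 24 fell with Ifng (2.7% of all genes fell) and 27 fell without it (2.35% of all genes), with median effects of -1.50 and -2.27 and a median interaction of 0.60. The mean of the list ranged over the arrays from -0.78 to -0.54 in CD70TG, 0.56 to 1.14 in WT, -1.04 to -1.03 in CD70TG*Ifng-/- and 0.89 to 1.26 in Ifng-/-. All 3 CD70TG arrays were thus above all 3 CD70TG*Ifng-/- arrays. In these bulk samples fewer macrophages and less RNA per macrophage cannot be told apart.

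Vcam1, an adhesion molecule that binds erythroblasts, read -1.70, -1.75 and -1.05 in CD70TG, 1.05, 1.69 and 1.11 in WT, -2.68, -2.57 and -2.57 in CD70TG*Ifng-/-, and 1.67, 1.37 and 1.77 in Ifng-/-. The transgenic groups did not overlap, CD70TG*Ifng-/- being lower, and the interaction was 1.43 ± 0.26 (adjusted p = 0.018). C1qc, a chain of the first complement component, had effects of -1.88 and -3.12 and an interaction of 1.25 ± 0.20 (adjusted p = 0.00955), and C1qb (1.25), Cd5l (1.23), Adgre1 (1.22), Apoe (1.09) and Csf1r (0.98), the receptor of the macrophage growth factor, were also positive. Fcgr4, an activating IgG receptor, was different in that CD70TG was not lower than WT: it read 0.37, 0.45 and 0.53 in CD70TG, -0.23, 0.06 and 0.14 in WT, -1.28, -1.25 and -1.30 in CD70TG*Ifng-/-, and 0.52, -0.38 and -0.06 in Ifng-/- (interaction 1.77 ± 0.23, adjusted p = 0.0029). Not past the threshold were Hmox1 (0.52, adjusted p = 0.247), Mrc1 (0.60, adjusted p = 0.22), Cd163 (0.43, adjusted p = 0.444), Siglec1 (0.08, adjusted p = 0.763) and Slc40a1 (-0.11, adjusted p = 0.76), all of which fell in both settings. After quantile normalization 1 member passed, with Vcam1 and C1qc among those lost, and the count was 2 without WT 1 or CD70TG*Ifng-/- 2, 3 without CD70TG*Ifng-/- 3, 4 without WT 3, CD70TG 2 or Ifng-/- 3, 5 without CD70TG 3 or Ifng-/- 1, and 18 without WT 2.

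The genes that passed only without Ifng fell there, as the macrophage list did, and the part of that list in their results was not tested. With Ifng intact, where this class takes only genes that did not pass, their median effect was 0.17. Ctsc, a lysosomal protease that activates granule proteases, read -1.07, -0.44 and 0.27 in CD70TG, -0.17, 0.64 and 0.17 in WT, -2.45, -2.41 and -2.32 in CD70TG*Ifng-/-, and 0.84, 0.27 and 0.55 in Ifng-/-. CD70TG overlapped WT and CD70TG*Ifng-/- lay more than 1 log2 unit below every other array (interaction 2.32 ± 0.37, adjusted p = 0.00935). Wfdc17 read -0.00, 0.00 and 0.02 in CD70TG, -0.08, 0.21 and -0.04 in WT, -0.79, -0.81 and -0.46 in CD70TG*Ifng-/-, and 0.95, 0.57 and 0.85 in Ifng-/-, so that Ifng-/- was the highest group (interaction 1.44 ± 0.16, adjusted p = 0.000948). Asah1, the lysosomal ceramidase, fell in both settings (-0.63 and -2.13, interaction 1.50 ± 0.26, adjusted p = 0.0127). Of 22 monocyte genes, Mpeg1 (1.49, adjusted p = 0.0463), a pore-forming protein of phagocytes, was the 1 that passed (1.89% of all genes did). None passed without WT 1, WT 3, CD70TG 2, CD70TG 3, Ifng-/- 1, Ifng-/- 3 or any 1 of the CD70TG*Ifng-/- arrays, 3 passed without CD70TG 1 and 5 without WT 2. Serglycin (Srgn), the proteoglycan of granules, was also positive (1.17). Ctsc and Mpeg1 did not pass after quantile normalization, nor Srgn with centring within the level classes. The class II and type I interferon lists, whose genes macrophages also express, share this fall, and the part of the macrophage list in their interactions was not tested either.

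In some genes the 3 WT arrays stood apart. Hsph1, a chaperone of the Hsp110 family, read -0.02, 0.17 and 0.25 in CD70TG, -1.20, -0.78 and -0.94 in WT, 0.05, -0.69 and -0.11 in CD70TG*Ifng-/-, and 0.05, 0.02 and 0.26 in Ifng-/-. The 3 WT arrays were the lowest and the other groups overlapped, giving 1.10 with Ifng, -0.36 without, and an interaction of 1.46 ± 0.23 (adjusted p = 0.00727). Ifng-/- lay 1.08 above WT (adjusted p = 0.0772), a difference that did not pass. Of 25 heat shock and handling-stress genes, Hspa8 (0.82), Hspe1 (0.77) and Hsph1 were positive (1.61% of all genes were) and 0 negative. Hspa8 and Hspe1 lost their calls after quantile normalization and with centring within the level classes, and the count was 1 without WT 1, CD70TG 2, Ifng-/- 3, CD70TG*Ifng-/- 2 or CD70TG*Ifng-/- 3, and 5 without Ifng-/- 2.

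Myc, the growth-promoting transcription factor, read 0.32, 0.60 and 1.12 in CD70TG, -0.77, -0.49 and -0.45 in WT, 0.06, -0.26 and -0.04 in CD70TG*Ifng-/-, and -0.12, 0.24 and 0.04 in Ifng-/-. CD70TG was the highest group, WT the lowest, and the 2 groups without Ifng lay between them and overlapped each other (interaction 1.38 ± 0.23, adjusted p = 0.0119). It was the 1 gene of 25 in the proliferation list that passed (1.89% of all genes did), in a list with a median of 0.03. Aco1, the iron-regulatory protein that binds ferritin and transferrin receptor mRNAs, also had WT below all others (interaction 0.61 ± 0.11, adjusted p = 0.018). The metallothionein Mt2 followed the CD70TG pattern, reading 1.24, 1.50 and 1.78 in CD70TG, -0.16, -0.16 and -0.43 in WT, 0.42, 0.04 and 0.03 in CD70TG*Ifng-/-, and -0.41, -0.03 and -0.19 in Ifng-/- (interaction 1.39 ± 0.20, adjusted p = 0.0052). It did not pass after quantile normalization, and its partner Mt1 did not pass at all (0.66, adjusted p = 0.0595).

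Cell death genes had 4 positive (1.61% of all genes were) and 0 negative of 21 measured, with a median of 0.25. Mlkl, the effector of necroptosis, read 0.58, 0.80 and 0.95 in CD70TG, -0.29, -0.14 and 0.10 in WT, -0.13, -0.39 and -0.10 in CD70TG*Ifng-/-, and 0.17, 0.13 and -0.20 in Ifng-/-. The CD70TG arrays lay above all others (interaction 1.13 ± 0.18, adjusted p = 0.00955). The initiator caspase Casp8 (0.80), the death ligand Tnfsf10 (0.70) and the pore-former Gsdmd (0.42) were the others, and Bak1 did not pass (0.61, adjusted p = 0.0576). The count was 1 without WT 1, CD70TG 2, CD70TG*Ifng-/- 2 or CD70TG*Ifng-/- 3, and 2 without CD70TG 3, Ifng-/- 1 or Ifng-/- 3.

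In 41 of the 56 negative genes the transgene lowered expression when Ifng was intact, and the other 15 did not pass in that setting. Grap2, an adaptor of T cell receptor and cytokine receptor signalling, read -0.89, -1.09 and -1.70 in CD70TG, -0.11, -0.01 and 0.02 in WT, 0.30, 0.01 and 0.11 in CD70TG*Ifng-/-, and 0.09, 0.08 and -0.01 in Ifng-/-. The CD70TG arrays were below all others and its interaction of -1.28 ± 0.21 (adjusted p = 0.011) was the most negative of the 56. Runx1t1, a transcriptional corepressor, had an interaction of -1.22 ± 0.20 (adjusted p = 0.011), with CD70TG at -0.66, -1.13 and -0.72 and WT at 0.03, 0.20 and -0.03. The growth-arrest gene Gadd45a (-0.79 ± 0.12, adjusted p = 0.0052) and the inhibitor of sister-chromatid separation Pttg1 (-0.67 ± 0.11, adjusted p = 0.00955) also passed, with effects with Ifng of -0.54 and -0.95. Pttg1, Riok3 and Ncoa4 had CD70TG arrays as the lowest and CD70TG*Ifng-/- arrays as the next lowest group. Among the 12 most negative named genes were also the sulphotransferase Chst10 (-1.04), the angiotensin receptor Agtr1a (-1.02), the receptor Calcrl (-0.90; it and Chst10 did not pass after quantile normalization), the histone gene H2bc4 (-0.80), the kinase Cdkl1 (-0.77) and the lysosomal protease Ctsf (-0.76).

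Several of the negative genes are known for roles in red cell precursors. Riok3, a kinase that mouse erythroblasts need to expel the nucleus, read -0.70, -0.69 and -0.80 in CD70TG, 0.25, 0.25 and 0.08 in WT, -0.30, -0.12 and -0.05 in CD70TG*Ifng-/-, and 0.09, 0.07 and 0.05 in Ifng-/- (interaction -0.70 ± 0.11, adjusted p = 0.00955). Ncoa4, the receptor that delivers ferritin for breakdown, fell by 0.77 in CD70TG, with a value of -0.21 without Ifng (adjusted p = 0.263) and an interaction of -0.56 ± 0.11 (adjusted p = 0.025). Among 17 measured iron handling genes it was the 1 negative and Aco1 the 1 positive, with a median of 0.08. Bpgm, which makes the phosphoglycerate that lowers the oxygen affinity of haemoglobin, had -0.46 ± 0.11 (adjusted p = 0.0442). It was the 1 of 17 red cell membrane and surface genes that passed (1.89% of all genes did). Bpgm and Ncoa4 did not pass after quantile normalization. Bpgm also did not pass after array median centring, and of the 12 fits with an array left out it passed only in the one without CD70TG*Ifng-/- 1. Cd36, a fatty acid receptor present on early erythroblasts in humans, had -0.84 ± 0.17 (adjusted p = 0.0265) and the ubiquitin-conjugating enzyme Ube2b -0.94 ± 0.18 (adjusted p = 0.0214).

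The red cell lists otherwise held few calls. Of all genes 1.89% passed, so 0 calls in lists of this size do not set them apart. Erythroid transcription factors had 0 calls of 21 measured and a median of 0.08, with Gata1 at 0.11 ± 0.13 (adjusted p = 0.639) and Klf1 at 0.12 ± 0.13 (adjusted p = 0.604). Haem synthesis and globin genes had 0 of 15 (median 0.03), with Alas2, the first enzyme of the pathway, at -0.23 (adjusted p = 0.262). The alpha and beta globin chains of that list were not analysed here. Late maturation genes had 0 of 16 and a median of -0.20, led by Fbxo30 (-0.49, adjusted p = 0.0569), Trim10 (-0.48, adjusted p = 0.0616) and the ubiquitin ligase Ube2o (-0.46, adjusted p = 0.0982). With Ifng 8 of these 16 fell (2.7% of all genes did), and without it 0 fell (2.35% of all genes did). After each array was centred within its level classes, 5 of these 16 were negative. Erythropoietin receptor and Stat5 genes had 0 of 16 (median 0.06), and Tfrc had -0.13 ± 0.11 (adjusted p = 0.508).

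B lineage genes had 2 negative of 24 measured (0.281% of all genes were negative). They were Cd79a (-1.04 ± 0.22, adjusted p = 0.0299), which encodes a signalling chain of the B cell receptor, and Vpreb3 (-0.71 ± 0.17, adjusted p = 0.0463). The median of the list was -0.34, with 23 of 24 below 0. With Ifng 18 of the 24 fell (2.7% of all genes did), and without it 2 fell (2.35% of all genes did). Cd79a read -1.33, -1.08 and -1.01 in CD70TG, 0.12, 0.52 and 0.54 in WT, -0.08, -0.33 and -0.02 in CD70TG*Ifng-/-, and 0.65, 0.02 and 0.37 in Ifng-/-. The CD70TG arrays were the lowest. Vpreb3 lost its call under each of 3 other scalings. Early granulocyte genes had the most positive median of the lists without a call (1.23, 0 of 9), with Prtn3 at 1.45 ± 0.40 (adjusted p = 0.0771), and CD70TG 3 was their highest array (1.77 for Prtn3, against 0.67 and 0.52 in the other CD70TG arrays). Mature neutrophils, eosinophils and basophils, plasma cells, T and NK cells, dendritic cells, megakaryocytes, stroma and the genes that flank Ifng on chromosome 10 held 0 calls. With 1.89% of all genes called, 0 calls in these small lists show little. The medians of these lists ranged from -0.24 for mature neutrophils to 0.22 for the chromosome 10 genes, and that of mature neutrophils was 0.33 without Ifng-/- 2 and -0.96 without Ifng-/- 1.

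**Figure D4:**
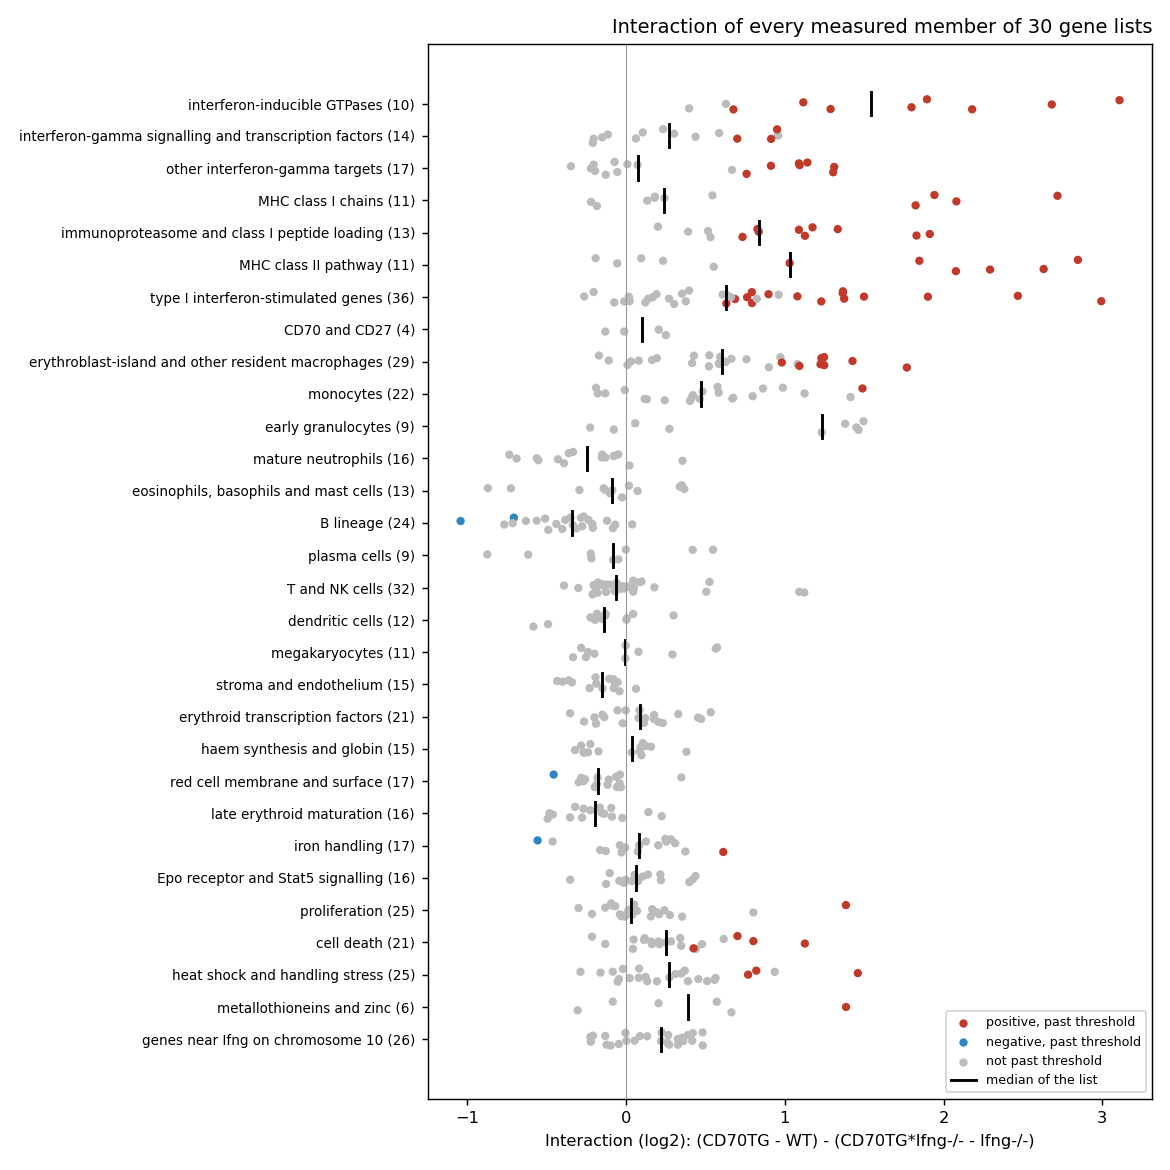
Interaction on the log2 scale (horizontal axis) of every measured member of 30 gene lists (vertical axis, with the number measured), a point per gene, coloured by whether it passed and in which direction, with a bar at each list's median. The GTPase list has the bar farthest to the right (1.54), the late maturation list and the B lineage list lie left of 0 (-0.20 and -0.34), and 70 of the 321 positive genes belong to any list.

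The number of calls rested on single arrays. Positive and negative counts were 199 and 34 without CD70TG 1, 77 and 11 without CD70TG 2, 199 and 27 without CD70TG 3, 74 and 8 without WT 1, 178 and 32 without WT 3, 79 and 6 without CD70TG*Ifng-/- 2, 87 and 7 without CD70TG*Ifng-/- 3, 163 and 17 without Ifng-/- 3, and 614 and 97 without CD70TG*Ifng-/- 1. In all 12 of these fits 65 of the 321 positive and 5 of the 56 negative genes kept their call, among them Iigp1, Gbp7, Gbp8, H2-Q4, H2-Q5, B2m, Tap1, Psmb9, Psme1, H2-Ab1, Ctss, Fcgr4, Oasl2, Rtp4, Mlkl, Hsph1 and Myc. Irf1, Vcam1, Cd79a, Cd36 and Bpgm did not. Without the eBayes sharing of variance between genes 0 genes passed, with 3619 at an unadjusted p under 0.05.

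**Figure D5:**
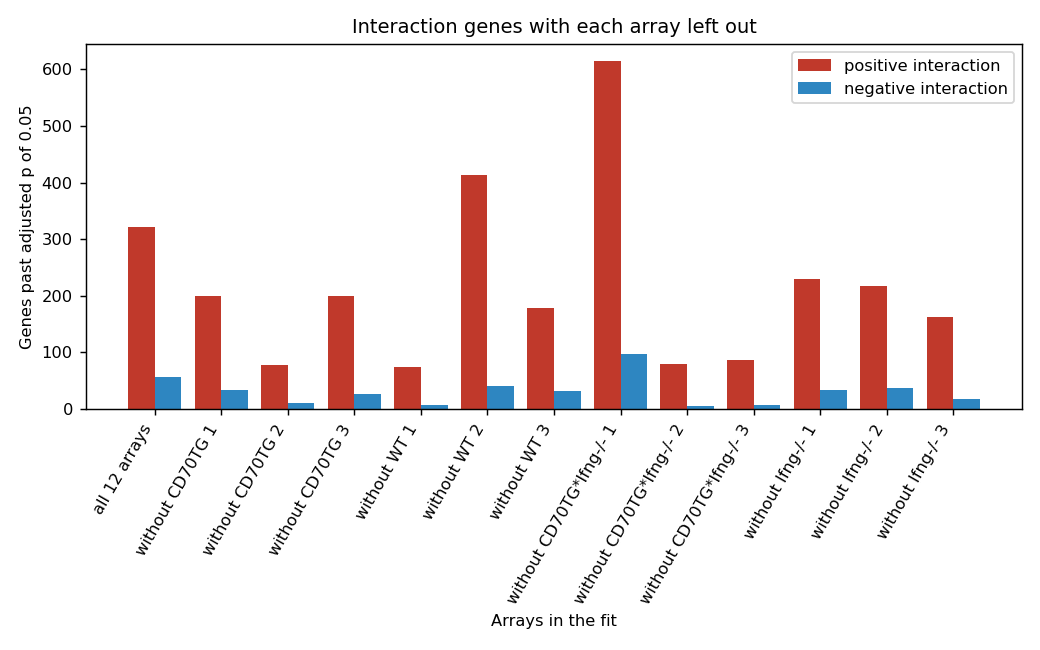
Number of genes past an adjusted p of 0.05 (vertical axis) with a positive or a negative interaction, from all 12 arrays and with each array left out in turn (horizontal axis). The bars for positive genes run from 74 without WT 1 to 614 without CD70TG*Ifng-/- 1, around the 321 from all arrays.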

How the data were processed

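RNA of 12 mice (4 groups of 3) was measured on 1 microarray each. The deposited table holds log2 values for 28815 probe sets, made by the authors with RMA per the submitters' processing notes (version not given in the sources used here). The median of each probe set over the 12 arrays is 0, so the table was also centred, and how and why is not stated. The log base and sign were taken from what RMA gives.

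Rounding of the deposited values showed whether a probe set's log2 level before centring was above or below 8, which gave the level classes. The 21780 probe sets with 1 gene symbol in the platform annotation were averaged to 19935 genes, 998 of them from several probe sets. Probe sets with several symbols (1605) or none (5430) were not analysed here. The 4 group means were fitted to all arrays with limma 3.58.1 in R 4.3.3 (lmFit, then eBayes, with 8 degrees of freedom from the residuals and 6.23 from the prior), and the interaction was tested two-sided with Benjamini-Hochberg adjustment over all genes. The labels number separate mice, so the spread is between mice, and the number of arrays limits the precision. The scripts were tested on simulated data.

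The genes named were Ifng, Cd70, Cd27, Irf1, Spi1, Gata1, Klf1, Tfrc, the 12 most positive and 12 most negative called genes, and up to 3 genes with the smallest p of each list and each class. Other list members are printed to show how a list divided and were chosen after their values were seen. The members and lists were chosen with earlier results of these data known. Alternatives were other scalings, gene summaries, variance models, a replicate block, a filter on dim genes and leaving out arrays. Mice with the same number in different groups did not deviate together: 18 pairs had correlations of -0.40 to 0.31, of which 6 were over 0.1. Some mice with different numbers did: CD70TG 1 and Ifng-/- 2 had a correlation of 0.53, and CD70TG 3 and Ifng-/- 2 of -0.52. What such arrays share was not tested.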

Additional observations from a re-analysis of the deposited data

Results flagged for a closer look

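The test of the difference between the 2 transgene effects itself passed for 321 genes in which the effect with Ifng lay above the effect without it, and for 56 in which it lay below. Among the genes singled out by name, the positive interactions on the log2 scale were as follows. Interferon-inducible and antigen presentation genes were Iigp1 at 3.11, Oasl2 at 2.99, H2-Ab1 at 2.85, H2-Q4 at 2.72, Gbp8 at 2.68, H2-Aa at 2.63, Rtp4 at 2.47, H2-Eb1 at 2.29, Gbp7 at 2.18, H2-Q5 and Ctss at 2.08 each, Tap1 at 1.91, Psmb9 at 1.83, B2m at 1.82, Parp12 at 1.36, Cxcl10 at 1.31, Lap3 at 1.30, Psme1 at 1.13, Casp1 at 1.09, H2-DMa at 1.03, Stat3 at 0.95, Irf1 at 0.91, Nlrc5 at 0.70 and Trim21 at 0.66. Genes of macrophages, monocytes, granules and lysosomes were Ctsc at 2.32, Fcgr4 at 1.77, Asah1 at 1.50, Mpeg1 at 1.49, Wfdc17 at 1.44, Vcam1 at 1.43, C1qc at 1.25 and Srgn at 1.17.

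The remaining positive ones were Hsph1 at 1.46, Mt2 at 1.39, Myc at 1.38, Mlkl at 1.13, Hspa8 at 0.82, Casp8 at 0.80, Hspe1 at 0.77, Tnfsf10 at 0.70, Aco1 at 0.61 and Ywhab at 0.53. The negative ones were Grap2 at -1.28, Runx1t1 at -1.22, Cd79a and Chst10 at -1.04 each, Agtr1a at -1.02, Ube2b at -0.94, Calcrl at -0.90, Cd36 at -0.84, H2bc4 at -0.80, Gadd45a at -0.79, Cdkl1 at -0.77, Ctsf at -0.76, Vpreb3 at -0.71, Riok3 at -0.70, Mettl11b at -0.69, Pttg1 at -0.67, Gpcpd1 at -0.62, Olfr1054 at -0.58, Ncoa4 at -0.56, Gpr63 at -0.51, Bpgm at -0.46 and Zscan18 at -0.42.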

How the results depend on the processing

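Of the 64 called genes singled out by name, none changed sign under the alternatives in which it could be followed (59 of them with genes of 1 probe set, 20 in the brighter level class alone, and none with single probe sets, which were counted only); 47 kept their call under the 3 other scalings, 30 with every single array left out, and 27 under both. Positive and negative counts were 321 and 56 as reported, 226 and 31 after quantile normalization, 369 and 129 with centring within the level classes, 83 and 6 at 2-fold or more, 1392 and 648 with array weights, and 147 and 28 without CD70TG 3 and Ifng-/- 2 together. The ordinary linear model called 0 and 0 (smallest adjusted p 0.0753, 3619 genes at an unadjusted p under 0.05). With single arrays left out the positive count ran from 74 (without WT 1) to 614 (without CD70TG*Ifng-/- 1) and the negative count from 6 (without CD70TG*Ifng-/- 2) to 97 (without CD70TG*Ifng-/- 1). Array median centring, genes with 1 probe set, single probe sets, robust eBayes and the brighter level class alone gave 253 to 376 positive and 39 to 64 negative genes. With the replicate number as a block the counts were 112 and 16; the groups share only numbers, not animals. Fewer arrays were fitted in the counts without arrays; the cause of the other changes was not tested. The number of arrays limits what could be called.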

Other observations

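Some housekeeping gene groups that the lists above do not hold, picked after their values were seen, leaned to positive interactions with few calls. Of all genes 1.61% were positive, so the counts below of 1 of 34, 2 of 61 and 1 of 76 were near that share. Of 18 cytosolic aminoacyl-tRNA synthetases, which load amino acids onto tRNAs, 3 were positive: Farsa (0.50), Qars (0.71) and Wars (0.76), with a median of 0.33 against -0.04 over all genes. None of the 8 subunits of the CCT chaperonin, which folds actin and tubulin, passed (median 0.38), although Cct3 reached 0.68 (adjusted p = 0.0912). Of 34 constitutive proteasome subunits 1 was positive, Psmb2 (0.68), with a median of 0.22. Of 61 cytosolic ribosomal proteins 2 were positive, Rps15a and Rps18, with a median of 0.20, and of 76 mitochondrial ones 1 was, Mrpl38, with a median of 0.25. Most genes of 4 of these 5 groups lay in the brighter level class (15 of 18 synthetases, 8 of 8 chaperonin subunits, 32 of 34 proteasome subunits and 48 of 61 cytosolic ribosomal proteins, but 12 of 76 mitochondrial ones), a class whose median interaction was 0.15, against -0.06 in the dimmer class. With centring within the level classes the medians were 0.19 for the synthetases, 0.24 for the chaperonin, 0.09 for both the proteasome and the cytosolic ribosomal proteins and 0.28 for the mitochondrial ones. The part of the level class in these values was not tested further.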
